A study of Homo sapiens with 6 samples.

Results

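The genes described here are 10 desmosome genes, DSP, JUP, DSG2, DSC2, DSC3, PKP2, PKP3, PKP4, PPL and EVPL, out of 54261 gene rows in the deposited count table. They were taken by gene symbol, and they had been proposed with the fold changes of these same 6 libraries in view, so their own differences between the lines are given as a description without a test. RNA of 786-O cells (a standing human line of clear-cell kidney cancer, labelled control) was compared with RNA of 7R, the labelled sunitinib-resistant line of 786-O, in 3 libraries each. Sunitinib is an inhibitor of receptor tyrosine kinases that include the VEGF and PDGF receptors. All libraries are of the same cell background and were grown in the same named medium, and the resistant group is a single line. The labels leave unsaid whether cells were under drug at harvest and whether each library had its own culture, so p-values below measure the spread between libraries, which may be technical.

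A desmosome is a spot-like cell-to-cell junction that ties the intermediate filaments of neighbouring cells together. Its transmembrane cadherins, the desmogleins (DSG genes) and desmocollins (DSC genes), bind across the gap between cells. Inside the cell they hold plakoglobin (JUP) and the plakophilins (PKP genes), which are armadillo-repeat proteins, and these recruit desmoplakin (DSP), a plakin that binds keratin or vimentin filaments. Desmosomes are found in epithelia, including the renal tubule from which clear-cell carcinoma arises, and in heart muscle.

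Library totals ran from 48264905 to 52221491 counts in control and from 37919629 to 38131634 in resistant libraries. Levels are given as CPM, counts set to a shared library size that TMM scales for composition. Where a library has 0 counts, up to 3 are allowed by counting error, which is between 0.0662 and 0.0706 CPM. This limit and the intervals below cover counting error only, as PCR copies are not separate molecules. Fold changes are resistant over control from edgeR's quasi-likelihood fit, each with its standard error (SE). Of the 16642 genes tested, 39.3% were higher and 36.9% lower in the resistant line at an adjusted p of 0.05. Scaled by library totals alone, the higher genes made up 62.4% of those called in place of 51.6%, and the median log2 fold change of all genes was 0.39 in place of 0.05, so each value here holds relative to TMM. Across 14212 genes fold change also went with transcript GC content, with a Spearman's rho of -0.69 over genes that are not independent replicates. Each member's value is therefore also given after the library's own trend on GC content and length was taken out ("adjusted for GC and length"). Resistant replicate 1 stood apart within its line. A chi-square test of counts gave 62.9 and 60.1 per degree of freedom for its pairs, where the pair without it gave 8.94 and control pairs gave 12.4 to 35.5. GC content also tracked how paired replicates within one line differed. Spearman's rho was 0.35, 0.54 and 0.35 for the control pairs. It was -0.58 and -0.52 for the pairs with resistant replicate 1, and 0.13 for the remaining resistant pair. How much of the GC trend between the lines is of this kind was not tested.

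The sequences before the transcription starts of 6 members were found in RefSeq tables (GRCh38.p14), and the 3 that hold an E-box are shown because the repressors of epithelial genes SNAI1, ZEB1 and ZEB2, which bind this motif, were measured in the same libraries. The motif searched was CAGGTG or its reverse complement CACCTG, both read on the gene's strand in the 250 bases before the first start. It is printed in capitals. The windows are at chr6:7541421-7541670 on the plus strand for DSP, chr18:31497927-31498176 on the plus strand for DSG2 and chr18:31102422-31102671 on the minus strand for DSC2, each written 5′ to 3′ on the gene's strand.
DSP: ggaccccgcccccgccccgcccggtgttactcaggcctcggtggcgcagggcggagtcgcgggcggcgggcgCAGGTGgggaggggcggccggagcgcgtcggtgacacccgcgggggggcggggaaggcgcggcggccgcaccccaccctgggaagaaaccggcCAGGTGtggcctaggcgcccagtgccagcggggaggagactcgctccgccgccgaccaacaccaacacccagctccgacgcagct
DSG2: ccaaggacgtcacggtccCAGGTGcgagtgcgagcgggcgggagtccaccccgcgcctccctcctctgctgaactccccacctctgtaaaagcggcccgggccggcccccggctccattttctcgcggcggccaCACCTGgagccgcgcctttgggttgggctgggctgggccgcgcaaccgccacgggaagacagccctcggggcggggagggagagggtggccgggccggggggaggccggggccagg
DSC2: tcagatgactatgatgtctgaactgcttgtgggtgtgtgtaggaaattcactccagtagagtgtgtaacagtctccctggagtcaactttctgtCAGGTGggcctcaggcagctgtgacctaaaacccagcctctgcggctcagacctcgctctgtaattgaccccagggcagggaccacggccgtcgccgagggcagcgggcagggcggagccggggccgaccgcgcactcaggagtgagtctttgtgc
DSP and DSG2 held the motif at 2 places each, and DSC2 at 1 place. In DSP, 172 and 79 bases lay between the motif and the start, in DSG2 226 and 110 bases, and in DSC2 150 bases. None was found in the windows of JUP, DSC3 and PKP4. Of 27305 windows of this length in the table, 17.5% held the motif and 2.57% held it more than once. A match is a description of the letters and not evidence of binding, and it was not tested whether the authors' genome build and gene starts were the same.

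Of the desmosomal cadherins, DSG2, the desmoglein of simple epithelia and heart, was the only abundant one in both lines. DSG2 stood at 108, 92.7 and 95.8 CPM in the control libraries and at 235, 271 and 263 CPM in the resistant ones. All 3 resistant libraries lay above all controls, with means of 98.7 ± 7.84 and 256 ± 19.2 CPM (SD, n = 3). Its log2 fold change was 1.38 ± 0.11 (SE), a 2.60-fold difference. With tested genes divided into 10 equal bins by GC content, those in the bin of DSG2 had a median log2 fold change of 1.13, and after the GC and length trend was removed DSG2 was higher by 0.37 ± 0.07. In bulk RNA, more cells with a transcript and more transcript per cell cannot be told apart.

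DSC2, the desmocollin that is usually made beside DSG2 in simple epithelia and heart, was close to undetected in control cells. It had 0, 6 and 1 counts in the control libraries and 61, 83 and 105 counts in the resistant ones. Control levels were at most 0.138 CPM, and resistant levels were 1.41, 1.94 and 2.47 CPM, with no overlap. The log2 fold change was 5.12 ± 0.65 and the ratio of summed counts 36.7 (exact 95% interval 17.6 to 92.3). It passed the low-count filter only through the resistant libraries, so a difference between its groups was bound to appear. With so few control counts the size is loose. Leaving out control replicate 2 gave a log2 fold change of 7.07, leaving out control replicate 1 gave 4.51, and removing the GC and length trend gave 3.84 ± 0.64. DSC3, a desmocollin of the basal layer of stratified epithelia, had 0, 1 and 1 counts in control and 1, 4 and 1 in resistant libraries. These are at or near the limit of detection (ratio 3.10, exact 95% interval 0.554 to 31.4).

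The desmocollin and desmoglein genes lie next to each other on chromosome 18, in the order DSC3, DSC2, DSC1, DSG1, DSG4, DSG3 and DSG2 in RefSeq's annotation. DSC1, DSG1, DSG4 and DSG3, which belong to stratified epithelia and hair, had 0 counts in each of the 6 libraries. Of the nearest coding neighbours, CDH2 (N-cadherin) stood at 380 ± 20.3 CPM in control and 424 ± 15.7 in resistant libraries and did not pass the test (log2 fold change 0.16 ± 0.09, adjusted p = 0.142), while TTR had 0 counts throughout. CHST9, a sulfotransferase gene beyond CDH2, rose from 1.13 ± 0.326 to 7.65 ± 1.88 CPM (2.76 ± 0.27, adjusted p = 1.75e-06) and still passed after the GC and length trend was removed (1.75, adjusted p = 2.77e-05). B4GALT6, beyond TTR, rose from 5.59 ± 0.612 to 11.4 ± 2.18 CPM (1.03 ± 0.18, adjusted p = 1.95e-04), but after the GC and length trend was removed it no longer passed (0.22, adjusted p = 0.225), and CDH2 was then lower (-0.61, adjusted p = 8.50e-06). The counting's strand setting is not given in the sources used here. The antisense genes DSG1-AS1 and DSG2-AS1 had 0 counts, and DSCAS, which overlaps DSC2, had 0 in control and 2 over the resistant libraries, so few reads were assigned to these partners.

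**Figure D1:**
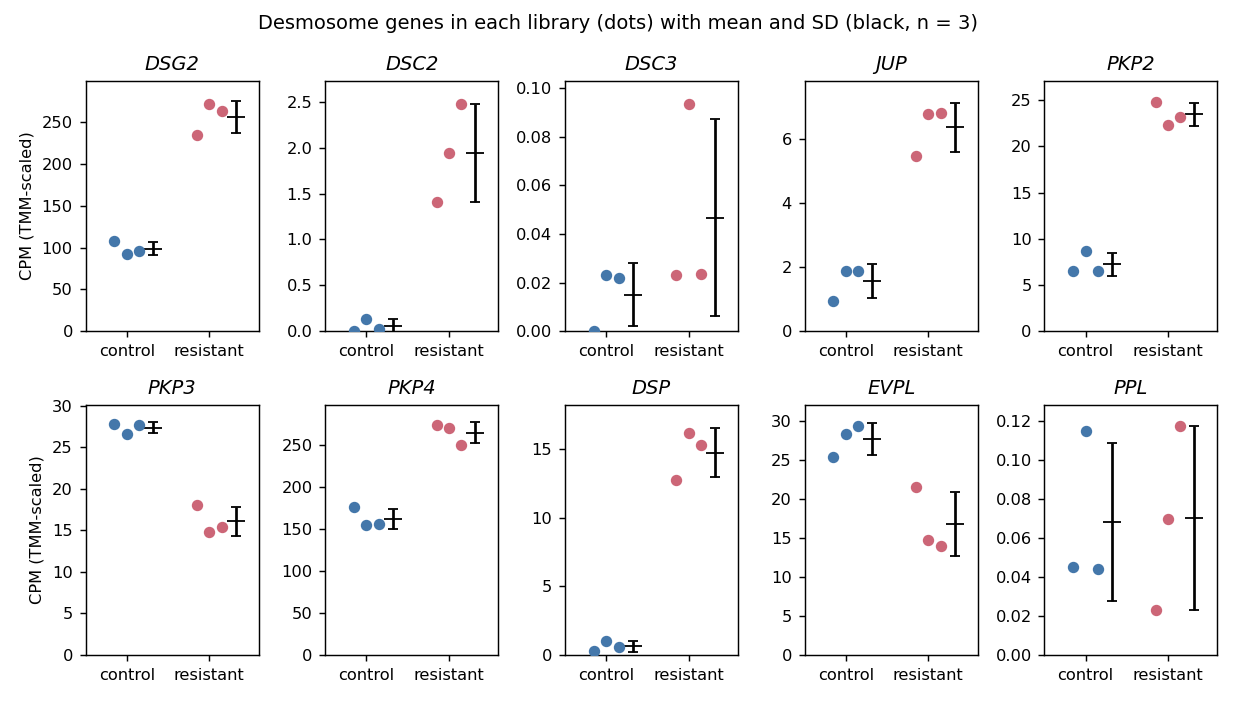
TMM-scaled CPM (vertical axis, from 0, a scale of its own in each panel) of the 10 desmosome genes in 3 control (blue) and 3 resistant (red) libraries, with mean and SD in black. DSG2, DSC2, JUP, PKP2, PKP4 and DSP are higher in all resistant libraries, and PKP3 and EVPL are lower in all, which turned to higher after the GC and length trend was removed; DSC3 and PPL are at a few counts per library.

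Plakoglobin, the product of JUP, joins the cadherins to desmoplakin and is the close relative of beta-catenin. JUP had 0.954, 1.87 and 1.88 CPM in the control libraries and 5.46, 6.77 and 6.80 CPM in the resistant ones. The groups did not overlap, and the means were 1.57 ± 0.530 and 6.35 ± 0.767 CPM. The log2 fold change was 2.02 ± 0.26, a 4.05-fold difference. JUP transcripts are rich in GC (61.5%), and tested genes of its GC bin had a median of -1.19. After the trend was removed the value of JUP was 3.30 ± 0.26, or 9.82-fold. JUP lay at the 88.9th percentile of unadjusted log2 fold change among the 16642 genes tested. Adjusted, it lay at the 98.0th percentile among the 14212 genes with a GC value.

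The plakophilins bind desmoplakin and gather the desmosomal plaque, and they did not all differ in the same direction before the adjustment. PKP2, the plakophilin of simple epithelia and heart, stood at 6.54, 8.71 and 6.56 CPM in control and at 24.8, 22.3 and 23.2 CPM in resistant libraries. Every resistant library was above every control, by 1.69 ± 0.15 on the log2 scale (3.23-fold), and by 1.40 ± 0.13 without the GC and length trend. PKP4, also called p0071 and found at adherens junctions as well, was the most abundant plakophilin. It had 176, 155 and 156 CPM in control and 274, 270.5 and 250.2 CPM in resistant libraries. Its log2 fold change of 0.71 ± 0.10 (1.63-fold) was 0.72 ± 0.07 after the trend was removed.

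PKP3, a plakophilin of most epithelia, was lower in the resistant libraries, at 18.1, 14.9 and 15.4 CPM against 27.8, 26.6 and 27.7 CPM in control. The log2 fold change was -0.76 ± 0.12, a 1.70-fold lower level, while the tested genes of its GC bin had a median of -1.35. After the GC and length trend was removed the sign turned, to 0.74 ± 0.09. PKP3 has the highest GC content of the members, 66.7%. PKP1, the plakophilin of stratified epithelia, is outside the member list and had 0 counts in control and 2, 7 and 4 in the resistant libraries. Set against a floor of 3 counts over the control group, the resistant level was 4.48-fold higher. The exact interval of the ratio, which also lets the resistant counts vary, had a lower limit of 3.15. PKP1 was too low to be tested. The processed pseudogenes PKP2P1 and PKP4P1 had at most 1 count over all libraries.

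RNA of desmoplakin, the protein that links the plaque to intermediate filaments, was nearly absent from control cells. DSP had 11, 44 and 27 counts in the control libraries and 550, 694 and 650 counts in the resistant ones. In CPM these were 0.250, 1.01 and 0.596 against 12.7, 16.2 and 15.3, so the lowest resistant library lay far above the highest control. The log2 fold change was 4.57 ± 0.33, a 23.7-fold difference (ratio of summed counts 23.9, exact 95% interval 19.1 to 30.1). DSP was at the 98.6th percentile of log2 fold change of all tested genes. With a GC content of 48.0% its neighbours in GC had a median of 0.14, and after the trend was removed it was still 4.26 ± 0.31 higher. Leaving out each library in turn gave 4.14 to 5.06.

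Envoplakin (EVPL) and periplakin (PPL) are plakins that pair with each other and with the desmosome in stratified epithelia. EVPL had 25.4, 28.4 and 29.3 CPM in control and 21.6, 14.8 and 14.0 CPM in resistant libraries. The groups did not overlap, but resistant replicate 1 was nearer to the controls than the other resistant libraries were. The log2 fold change was -0.72 ± 0.16. EVPL shares the bin of highest GC content with PKP3 (65.2% GC, median of that bin -1.35), and its sign also turned after the trend was removed, to 0.59 ± 0.11. PPL, its partner, had 2, 5 and 2 counts in control and 1, 3 and 5 in resistant libraries, 9 in each line in all (ratio 1.03, exact 95% interval 0.363 to 2.94).

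**Figure D2:**
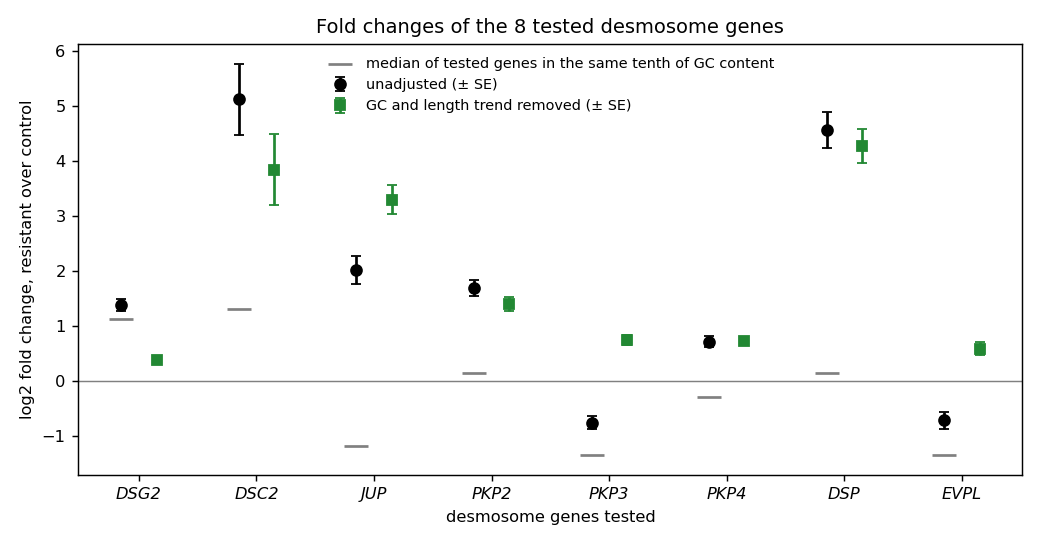
Log2 fold change, resistant over control (vertical axis), of the 8 desmosome genes that passed the low-count filter, unadjusted (black circles) and after the GC and length trend was removed (green squares), with SE bars and, as grey dashes, the median of tested genes in the same of 10 equal GC bins. DSP, DSC2 and JUP lie highest after adjustment (4.26, 3.84 and 3.30), DSG2 is nearest to 0 (0.37), and PKP3 and EVPL change sign.

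Counted together, 8 of the 10 genes passed the low-count filter, and DSC3 and PPL did not. Of the 8, 6 were past an adjusted p of 0.05 as higher (39.3% of all genes tested) and 2 as lower (36.9%), and 76.2% of all genes were past it in either direction. The groups did not overlap for any of the 8, 6 higher (41.4% of all genes tested) and 2 lower (39.0%), with 80.3% in either direction. Adjusted for GC and length, all 8 were past it as higher (33.9% of 14212 genes) and 0 as lower (33.1%). Without resistant replicate 1 the counts were again 6 higher (38.8%) and 2 lower (36.6%), and 8 and 0 after adjustment (33.5% each). The 8 include DSC2, which passed the filter only through the resistant libraries. The median log2 fold change of the 8 was 1.53 unadjusted and 1.07 adjusted. Nothing is read from these counts or medians, since the members were chosen on this contrast. Without resistant replicate 1 the unadjusted values were 1.43 for DSG2, 5.30 for DSC2, 2.11 for JUP, 1.64 for PKP2, -0.87 for PKP3, 0.67 for PKP4, 4.66 for DSP and -0.95 for EVPL. Without that library and adjusted they were 0.35, 3.92, 3.46, 1.33, 0.76, 0.70, 4.34 and 0.46 in the same order.

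**Figure D3:**
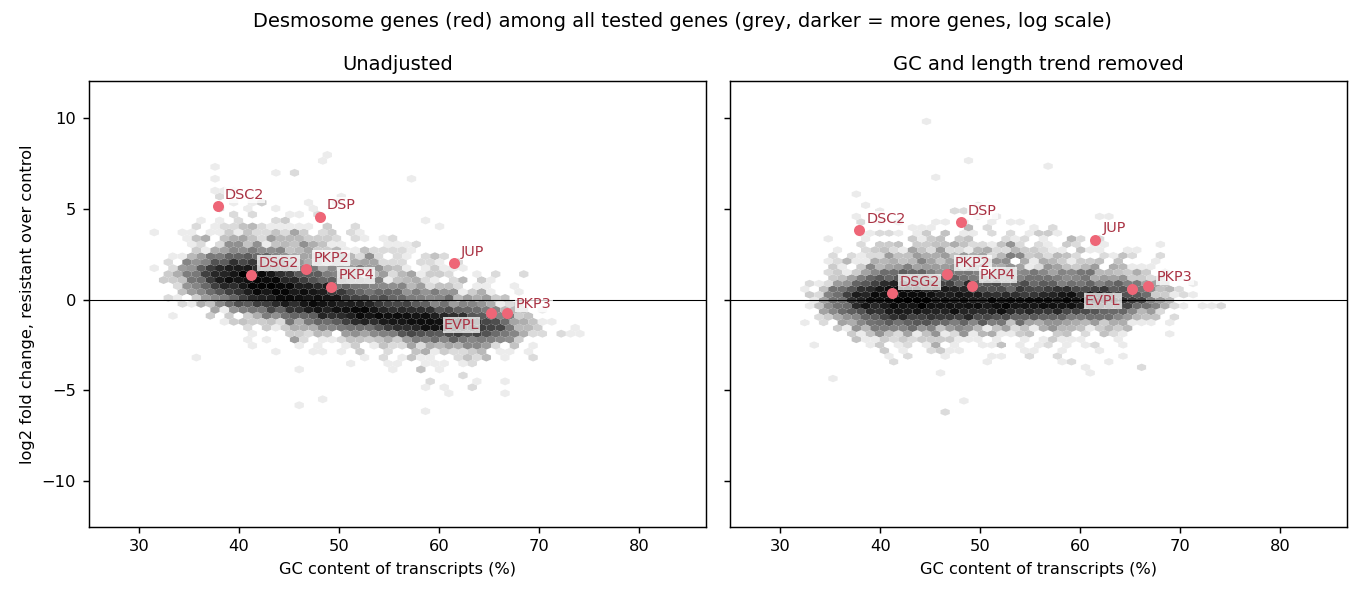
Log2 fold change, resistant over control, against the GC content of transcripts in percent, for all tested genes with a GC value (grey cells, darker for more genes on a log scale) and the 8 tested desmosome genes (red), unadjusted on the left and with the GC and length trend removed on the right. DSP, DSC2 and JUP lie above the bulk of genes of like GC content in both panels, DSG2 lies within it, and PKP3 and EVPL are below 0 only on the left.

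Levels can be compared between genes only per length, and for this the CPM was divided by the median length of the gene's GENCODE transcripts, which may not be the transcripts these cells make. In control cells PKP4 and DSG2 led, at 39.1 ± 2.82 and 28.6 ± 2.27 CPM per kb. PKP3 (9.74 ± 0.224), EVPL (4.32 ± 0.316), PKP2 (1.70 ± 0.292), JUP (0.475 ± 0.161) and DSP (0.0704 ± 0.0434 CPM per kb) followed with no overlap between neighbours. PPL, DSC2 and DSC3 were at or below 0.0286 CPM per kb in each control library and overlapped. In resistant cells DSG2 came first, at 74.2 ± 5.56 CPM per kb, before PKP4 at 63.8 ± 3.06. PKP3 (5.73 ± 0.619) and PKP2 (5.49 ± 0.301) overlapped there, as did JUP (1.92 ± 0.233) and DSP (1.67 ± 0.205 CPM per kb). EVPL lay between these pairs at 2.62 ± 0.647, and DSC2 below them at 0.402 ± 0.110 CPM per kb.

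The members therefore stood in very different proportions to DSG2. Per 100 units of DSG2 (each as CPM per kb in the same library), DSP made up 0.0911, 0.429 and 0.244 in control and 2.13, 2.35 and 2.28 in resistant libraries. JUP made up 1.70 ± 0.665 and 2.59 ± 0.138. The desmocollins DSC2 and DSC3 together made up 0.0490 ± 0.0623 and 0.547 ± 0.122. In both lines DSP, JUP and the desmocollins thus stood at a few per 100 of DSG2 or fewer, unlike PKP4. PKP3 made up 585 ± 103 per 100 of PKP2 in control and 104 ± 5.66 in resistant libraries, and JUP made up 0.674 ± 0.238 and 3.22 ± 0.719 per 100 of its relative CTNNB1. These proportions are not adjusted for GC and length, and the members differ in GC content. Unadjusted and adjusted log2 fold changes were -0.76 and 0.74 for PKP3, and 1.69 and 1.40 for PKP2. They were 2.02 and 3.30 for JUP, and 1.38 and 0.37 for DSG2. The part of the GC trend in these proportions was not tested. All 10 together took 0.0276% to 0.0314% of the counts in control and 0.0662% to 0.0695% in resistant libraries.

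**Figure D4:**
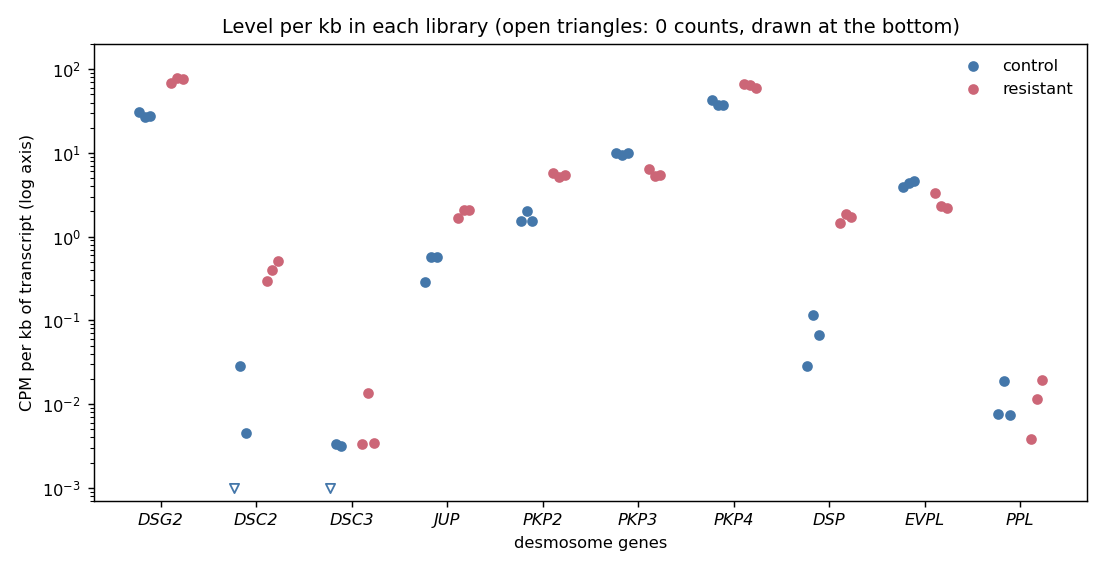
CPM per kb of transcript (log axis) of the 10 desmosome genes in each control (blue) and resistant (red) library, unadjusted; open triangles mark 0 counts. PKP4 and DSG2 lead in both lines, and DSP and DSC2 are the members whose levels differ most between the lines, at up to 0.115 and 0.0286 in control and at least 1.45 and 0.292 CPM per kb in resistant libraries.

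The remaining desmosome genes were tested in the same fit. Of 8 listed, 4 had 0 counts in each library (DSG1, DSG3, DSG4 and DSC1), PKP1 and CDSN (corneodesmosin, 5 counts in control and 0 in resistant) were too low to test, and 2 were tested. KAZN, a binding partner of periplakin, fell from 116 ± 6.34 to 72.6 ± 10.6 CPM (-0.67 ± 0.12 on the log2 scale, adjusted p = 2.65e-04), but was higher by 0.34 after the GC and length trend was removed (adjusted p = 0.00243). PERP, a membrane protein of desmosomes, rose from 37.2 ± 5.46 to 46.4 ± 1.25 CPM (0.32 ± 0.12, adjusted p = 0.0332). It no longer passed when control replicate 1 was left out (adjusted p = 0.103), nor without control replicate 3 (0.233), resistant replicate 2 (0.0642) or resistant replicate 3 (0.0701), and after adjustment PERP was lower (-0.70, adjusted p = 3.03e-04).

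The other plakins, large linkers between filaments and junctions, gave 3 higher and 1 lower of 4 tested, beside 76.2% of all genes called. Their median log2 fold change was 1.24. After adjustment 4 were higher and 0 lower (median 0.65), beside 33.9% and 33.1% of all genes. DST (dystonin) rose from 110 ± 5.65 to 544 ± 211 CPM (2.31 ± 0.24, adjusted p = 3.36e-06, adjusted for GC and length 0.91). Resistant replicate 1 had 13002 counts of DST and the other resistant libraries 29169 and 27591. MACF1, which links actin and microtubules, rose from 317 ± 25.1 to 705 ± 53.9 CPM (1.15, adjusted p = 1.12e-06, adjusted 0.40), and EPPK1 (epiplakin) from 2.02 ± 0.541 to 5.07 ± 2.15 CPM (1.32, adjusted p = 0.00284, adjusted 2.42). PLEC (plectin), by far the most abundant at 2675 ± 187 CPM, fell to 1486 ± 185 CPM (-0.85 ± 0.11, adjusted p = 2.10e-05), but was 0.23 higher after adjustment (adjusted p = 0.0198). EVPLL had 0 counts.

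Among the armadillo relatives of plakoglobin and the plakophilins, 1 of 3 tested was higher and 0 were lower. Of all genes tested, 39.3% were higher and 36.9% lower. CTNND1 (p120-catenin) rose from 5.51 ± 0.656 to 9.34 ± 0.953 CPM (0.76 ± 0.16, adjusted p = 9.60e-04, adjusted for GC and length 0.38). CTNNB1 (beta-catenin), at 218 ± 4.65 and 188 ± 22.3 CPM, did not pass (-0.22 ± 0.11, adjusted p = 0.0821), though it was called lower without resistant replicate 1 (-0.32, adjusted p = 0.00314) and after adjustment (-0.42, adjusted p = 0.00104). ARVCF did not pass either (-0.17 ± 0.15, adjusted p = 0.333), and after adjustment it was 1.33 higher (adjusted p = 9.49e-06). CTNND2 had 1 count in control and 0 in resistant libraries. None of the 3 tested relatives reached a difference of 2-fold before adjustment, and ARVCF did after it (2.51-fold).

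Of 11 tested intermediate filament genes, which form the filaments that desmoplakin anchors, 8 fell and 1 rose (median log2 fold change -1.42), where 36.9% of all genes tested were lower. After adjustment 4 fell and 1 rose (median -0.23), a share of lower genes near the 33.1% of all genes. KRT8 and KRT18, the keratin pair of simple epithelia, fell from 1608 ± 117 to 415 ± 95.3 CPM (-1.96 ± 0.15, adjusted p = 3.76e-07) and from 792 ± 124 to 295 ± 75.6 CPM (-1.42 ± 0.17, adjusted p = 9.98e-06). Adjusted for GC and length KRT8 was still lower (-0.65, adjusted p = 3.94e-05), and KRT18 did not pass (-0.23, adjusted p = 0.0832). VIM (vimentin) fell from 9982 ± 412 to 2405 ± 334 CPM (-2.05, adjusted p = 6.25e-08) and KRT19 from 26.6 ± 3.16 to 0.234 ± 0.109 CPM (-6.81, adjusted p = 3.76e-09), and adjusted for GC and length they stood at -1.28 and -5.43. KRT81 fell from 6.10 ± 1.11 to 1.19 ± 0.143 CPM (adjusted p = 1.55e-06), and KRT15 rose against the list from 2.25 ± 0.519 to 11.01 ± 0.222 CPM (2.29 ± 0.19, adjusted p = 6.63e-07, adjusted for GC and length 3.15). Keratin genes have pseudogenes with which reads may be shared.

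Adherens junction genes gave 4 higher and 5 lower of 12 tested (median -0.10), beside 39.3% and 36.9% of all genes tested. After adjustment 5 were higher and 7 lower (median -0.49), beside 33.9% and 33.1% of all genes. The unadjusted median reached -0.40 without resistant replicate 2. The adhesion receptors NECTIN1 and NECTIN2 fell from 67.4 ± 4.33 to 14.9 ± 3.10 CPM (-2.18 ± 0.15, adjusted p = 2.22e-07) and from 111 ± 3.51 to 30.6 ± 3.16 CPM (-1.86 ± 0.11, adjusted p = 1.07e-07). AJUBA, a LIM protein of junctions, fell from 263 ± 15.5 to 102 ± 15.5 CPM (-1.37, adjusted p = 9.75e-07). LIMA1, an actin-binding protein, rose from 41.4 ± 5.53 to 102 ± 7.88 CPM, and MLLT4, an older symbol of afadin (AFDN), from 132 ± 9.12 to 259 ± 12.0 CPM (0.97 ± 0.10, adjusted p = 2.72e-06). Adjusted for GC and length these 5 had log2 fold changes of -0.90, -0.45, -0.82, 0.43 and 1.04. The other genes called, named after their values were seen, were NECTIN3 (higher) and VCL and CTNNA1 (lower). E-cadherin, CDH1, had 7 counts in control and 13 in resistant libraries. CTNNA3, an alpha-catenin that binds PKP2 in heart muscle and was singled out after its values were seen, stood at 0.119 ± 0.0990 and 3.19 ± 1.51 CPM (4.70 ± 0.58, adjusted for GC and length 3.62). It is counted among the 4 higher genes, but it passed the low-count filter only through the resistant libraries, so a difference was bound to appear and no p is given.

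Tight junction genes gave 4 higher and 5 lower of 10 tested (median 0.10), beside 39.3% and 36.9% of all genes tested. They gave 5 and 2 when scaled by library totals alone. After adjustment 2 were higher and 3 lower (median -0.08), beside 33.9% and 33.1% of all genes. The unadjusted median ran from 0.11 without resistant replicate 1 to 0.68 without resistant replicate 3. CLDN4 fell from 30.4 ± 2.57 to 12.3 ± 0.735 CPM (-1.30, adjusted p = 1.26e-06, adjusted for GC and length -0.36) and JAM2 from 1.19 ± 0.298 to 0.296 ± 0.0506 CPM (-1.99, adjusted p = 5.79e-04, adjusted -2.46). CLDN12 and CLDN1 rose by 1.24 (adjusted p = 2.66e-06) and 0.93 (adjusted p = 7.96e-05), but adjusted for GC and length they stood at -0.02 and -0.07 and no longer passed (adjusted p = 0.913 and 0.644). F11R rose from 78.6 ± 5.24 to 119 ± 4.10 CPM (0.60, adjusted p = 1.74e-04, adjusted for GC and length 0.40). Further genes called, named after their values were seen, included TJP1 (higher, but not without resistant replicate 1, adjusted p = 0.101) and CLDN2 and CGNL1 (lower). After adjustment F11R and CGN were higher and CLDN4, JAM2 and CGNL1 lower.

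Hemidesmosome genes, which anchor keratins to the matrix, gave 1 higher and 2 lower of 7 tested (median 0.05, but -0.11 without control replicate 1 and 0.22 without resistant replicate 1). The higher members numbered 3 without resistant replicate 1 and 4 when scaled by library totals alone, and the lower ones 1 without control replicate 2. After adjustment 4 were higher and 0 lower (median 0.32). Of all genes tested, 39.3% were higher and 36.9% lower before adjustment, and 33.9% and 33.1% after it. CD151 fell from 394 ± 22.5 to 145 ± 16.7 CPM (-1.44 ± 0.11, adjusted p = 4.07e-07), but adjusted for GC and length it did not pass (-0.05, adjusted p = 0.520). ITGA6 rose from 59.1 ± 4.42 to 120 ± 8.59 CPM (1.03, adjusted p = 3.49e-06, adjusted for GC and length 0.32). COL17A1, the other lower gene, stood at 0.527 ± 0.207 and 0.171 ± 0.0121 CPM (-1.61). It passed the low-count filter only through the control libraries, so no p is given, and it was not called lower without control replicate 2 or after adjustment. The laminin gene LAMA3 did not pass (0.19, adjusted p = 0.129), but it did without resistant replicate 1 (0.26, adjusted p = 0.0211). The genes higher after adjustment included ITGA6, LAMB3 and ITGB4, of which the last pair was named after its values were seen.

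Genes that traffic, modify or shed desmosomal cadherins all passed the test, 7 higher and 7 lower of 14 (median 0.19), beside 76.2% of all genes tested. After adjustment 3 were higher and 5 lower (median 0.02), beside 33.9% and 33.1% of all genes. KIF3A, a kinesin-2 motor that carries desmocollin, rose from 5.61 ± 1.16 to 24.4 ± 3.04 CPM (2.12 ± 0.17, adjusted p = 5.35e-07, adjusted for GC and length 0.91). The protease ADAM17, which can cleave DSG2, rose from 33.5 ± 2.86 to 99.9 ± 19.7 CPM (1.57, adjusted p = 1.53e-06, adjusted 0.65). ADAM15, another protease of this family, fell from 213 ± 23.6 to 76.7 ± 11.9 CPM (-1.48, adjusted p = 1.09e-06), which did not pass after adjustment (-0.13, adjusted p = 0.125). ERBIN, a scaffold that binds PKP4, rose by 1.45 (adjusted p = 4.57e-06) and did not pass after adjustment (0.16, adjusted p = 0.0642). ZDHHC8, a palmitoyltransferase, fell by 1.40 on the log2 scale (adjusted p = 5.44e-06) and stood at 0.05 after adjustment (adjusted p = 0.633). The genes called after adjustment, named in part after their values were seen, were KIF3A, ADAM17 and ADAM9 (higher) and RHOA, ZDHHC5, RAP1A, PRKCA and GOLGA7B (lower).

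Of the regulators of epithelial and mesenchymal genes, 4 rose and 2 fell of 8 tested (median 0.55). After adjustment the counts were likewise 4 and 2 (median 0.43), though not the same 6 genes. Of all genes tested, 39.3% were higher and 36.9% lower before adjustment, and 33.9% and 33.1% after it. Before adjustment the lower regulators were SNAI1 and ESRP2 (-1.12, adjusted p = 0.0392), the latter named after its values were seen. Only 1 gene was lower when control replicate 2, control replicate 3 or any resistant library was left out. After adjustment ELF3 took the place of ZEB1 among the higher genes and SNAI2 that of ESRP2 among the lower ones. ZEB1 and ZEB2, the E-box repressors named beside the promoter sequences, rose from 12.6 ± 0.363 to 34.8 ± 8.84 CPM (1.47 ± 0.17, adjusted p = 8.43e-06) and from 29.9 ± 4.07 to 82.6 ± 16.5 CPM (1.47 ± 0.16, adjusted p = 4.19e-06). Adjusted for GC and length ZEB2 was 0.62 higher, and ZEB1 did not pass (0.24, adjusted p = 0.0926). SNAI1 fell from 57.6 ± 4.09 to 21.5 ± 3.42 CPM (-1.42, adjusted p = 1.44e-06, adjusted for GC and length -0.24). GRHL1, an activator in epithelia, rose from 2.65 ± 0.332 to 5.07 ± 0.227 CPM (0.94, adjusted p = 6.49e-04, adjusted for GC and length 1.02). GRHL2 and GRHL3 had between 6 and 12 counts in each line.

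**Figure D5:**
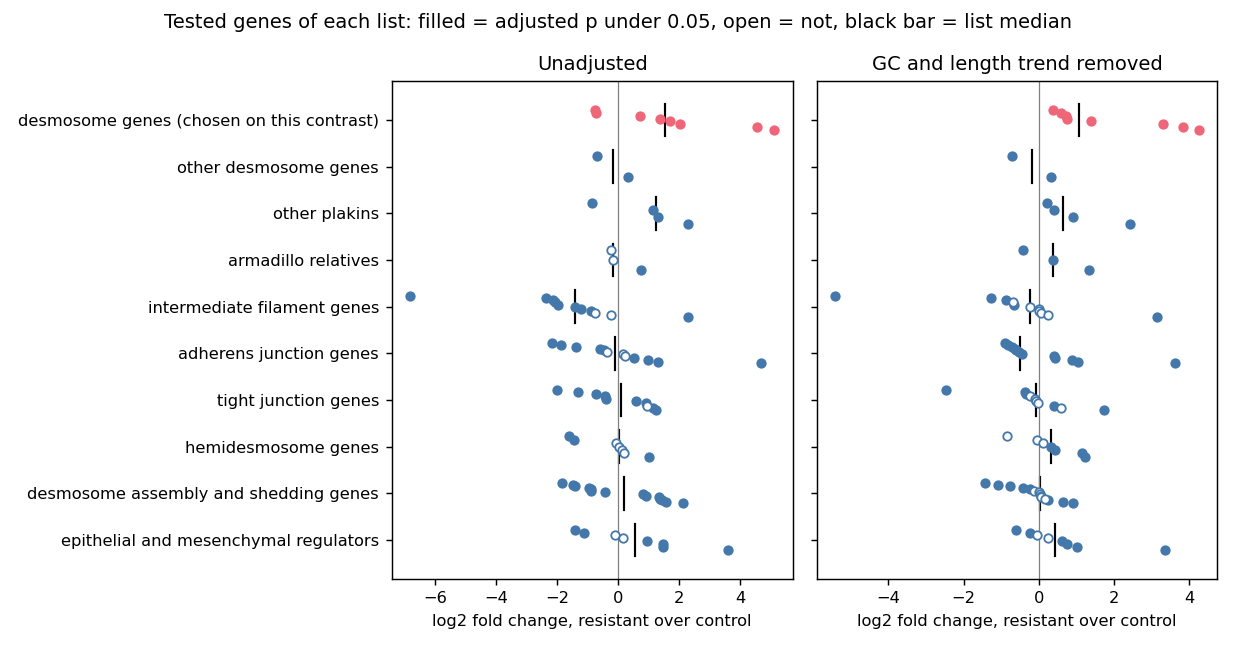
Log2 fold change, resistant over control (horizontal axis), of the tested genes of each list, unadjusted on the left and with the GC and length trend removed on the right; filled dots passed an adjusted p of 0.05, open dots did not, and black bars are medians. The desmosome genes described here (red), which were chosen on this contrast, have 6 dots above 0 on the left and 8 on the right, and intermediate filament genes lie mostly below 0 on the left.

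Markers of other cells were read in the same libraries, where 39.3% of all genes tested were higher and 36.9% lower. After adjustment these shares were 33.9% and 33.1%. Of 8 markers of simple epithelium, KRT8, KRT18 and KRT19 were tested and fell, CDH1 had 7 and 13 counts, and EPCAM, CLDN7 and ESRP1 had 0 counts in control and 6, 4 and 2 in resistant libraries. Their summed level was 2161 to 2640 CPM in control and 611 to 907 CPM in resistant libraries. Of 9 squamous markers KRT14, KRT6A and KRT1 were at 0 in each library, and TP63 had 0 and 6 counts. KRT5 had 2 counts in control and 15 in resistant libraries, and IVL 0 and 11, of which 10 were in resistant replicate 3. KRT5 and IVL were too low to test and were named after their values were seen. Of 3 tested 2 fell, KRT10 and SFN. After adjustment SFN (0.74, adjusted p = 0.00792) and TGM1 (1.23, adjusted p = 0.0221) were higher, and KRT10 was still lower (-0.44, adjusted p = 0.012). The sum was 21.2 to 28.8 CPM in control and 12.0 to 14.6 CPM in resistant libraries. Of 6 cardiomyocyte markers MYH6, MYH7 and NPPA were at 0 and RYR2, the only one tested, rose from 0.632 ± 0.233 to 5.11 ± 1.49 CPM (adjusted p = 4.78e-06). The sum was 0.363 to 0.773 CPM in control and 3.49 to 6.40 CPM in resistant libraries.

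Of 8 distal tubule and collecting duct markers AQP2, SLC12A1, UMOD, CALB1 and FOXI1 were at 0, SLC12A3 was the only one tested (12 and 60 counts), having passed the low-count filter only through the resistant libraries, and the sums were 0.253 to 0.419 and 0.306 to 0.701 CPM. Of 9 proximal tubule and clear-cell carcinoma markers PAX8 and GGT1 were among the highest and CA9 was at 0. In that list 5 fell and 1 rose of 6 tested, beside 36.9% and 39.3% of all genes. After adjustment 0 were lower and 4 higher, beside 33.1% and 33.9%. The gene that rose, named after its values were seen, was CUBN, from 1.06 ± 0.285 to 4.97 ± 0.900 CPM (2.23, adjusted for GC and length 1.63). The sums were 859 to 997 CPM in control and 629 to 669 CPM in resistant libraries. PAX8, the renal lineage factor, stood at 544 ± 47.2 and 407 ± 8.88 CPM (-0.42). Adjusted for GC and length PAX8 was higher (0.49, adjusted p = 1.335e-04). Brain markers were included because a label's extraction text names a brain region. Of 9, MOG was at 0, GFAP had 8 and 2 counts, MBP, GAD1 and SYT1 were the highest, and AQP4 had 0 and 46. Of 5 tested, 3 were called higher (AQP4 among them, tested only through the resistant libraries) and 1 lower. Adjusted for GC and length, 4 were higher, AQP4 again among them, and 1 was lower. Their sums were 29.5 to 31.7 and 42.0 to 47.1 CPM. The part of any of these marker genes in the values of the desmosome genes was not tested.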

How the data were processed

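RNA of 786-O and 7R cells was sequenced, 3 libraries per line. The authors deposited a table of whole-number counts by gene symbol. The submitters' processing notes name HISAT2 2.0.4, and no source used here gives the counting program, strand setting, genome build or annotation. Columns were matched to samples by title, leaving 0 unmatched. The members, the gene lists and the rule for naming genes (all members, all other desmosome genes, other plakins and armadillo relatives, up to 5 tested genes with the smallest p of each longer list, and of marker lists the 3 highest and those at 0) were chosen with earlier results of these data known. Some genes picked by this rule are left out here.

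Genes passing edgeR's filterByExpr (minimum count 10), 16642 of 54261, were scaled by TMM (factors 0.867 to 1.14) and tested with the quasi-likelihood test of edgeR 4.0.16 in R 4.3.3, with Benjamini-Hochberg adjustment over all genes tested. SE was taken as the size of the log2 fold change divided by the root of F. To adjust for GC content and length, a natural spline of each (6 and 5 degrees of freedom) was fitted to every library's deviations in log2 CPM, with gene models from GENCODE release 29, and entered as an offset. Of tested genes 85.4% had a gene model, as did all 10 members. A real difference tied to GC content would be removed as well. The authors' gene models may be others. DESeq2 1.42.0, other scalings and filters, and leaving out each library were alternatives. Tests were checked on simulated counts.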

Additional observations from a re-analysis of the deposited data

How the results depend on the processing

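The 6 higher and 2 lower desmosome genes were called alike with median-of-ratios or upper-quartile factors, without a low-count filter, with at least 1 CPM in 3 libraries, by DESeq2, and with each library left out in turn. Scaled by library totals alone 1 was lower. With GC content and length removed, GC alone removed, or both removed without resistant replicate 1 (this last chosen after seeing the data), 0 were lower. Over these 3 settings PKP3 stood at 0.74, 0.75 and 0.76 and EVPL at 0.59, 0.74 and 0.46 on the log2 scale. KAZN stood at 0.34, 0.39 and 0.27, PERP at -0.70, -0.66 and -0.82, PLEC at 0.23, 0.68 and 0.20, ARVCF at 1.33, 1.34 and 1.38, and CLDN12 at -0.017, -0.019 and -0.099. CLDN1 stood at -0.067 and -0.051 and ZDHHC8 at 0.051 and 0.093 in the first 2.

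Under the same 3 settings other plakins had 0 lower, armadillo relatives 2 higher and 1 lower, hemidesmosome genes 4, 5 and 4 higher and 0 lower, intermediate filament genes 4, 5 and 5 lower, and tight junction genes 2 higher in each and 3 and 2 lower in the first 2. Assembly and shedding genes had 3 higher in the first 2. Scaled by library totals, hemidesmosome genes had 4 higher, tight junction genes 2 lower and regulators 1 lower. Regulators also had 1 lower with upper-quartile factors, no filter, the 1 CPM filter and DESeq2, and hemidesmosome genes 1 lower with the 1 CPM filter. The cause was not tested.

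Leaving out each library in turn gave 0 to 1 higher other desmosome genes, 0 to 1 lower armadillo relatives, 1 to 3 higher and 1 to 2 lower hemidesmosome genes and 1 to 2 lower regulators. Where this leaves 2 libraries of a line, the spread is pooled over both lines.

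Replicate numbers are shared by the lines, but same-numbered libraries did not deviate together (correlations -0.13, -0.01 and -0.06). Differently numbered ones gave -0.10 to 0.13. With 3 libraries per line these values cannot tell whether same-numbered libraries share more than a number. With the replicate block 6246 genes were higher and 5851 lower, in place of 6540 and 6143, other desmosome genes had 0 higher and regulators 1 lower, and the member counts stayed at 6 and 2. With the replicate block and GC content and length removed, 0 members were lower, PKP3 stood at 0.74, EVPL at 0.57, KAZN at 0.33, PERP at -0.70, PLEC at 0.22, ARVCF at 1.33, CLDN12 at -0.020, CLDN1 at -0.060 and ZDHHC8 at 0.047. In that fit other plakins had 0 lower, armadillo relatives 1 lower, intermediate filament genes 4 lower, tight junction genes 2 higher and 3 lower, hemidesmosome genes 3 higher and 0 lower, and assembly and shedding genes 2 higher. DSC3, PPL, PKP1 and CDSN were too low to be tested at this depth.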
